A study of Mus musculus with 25 samples.

Results

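The genes examined here were 10 mouse genes whose products assemble triglyceride: Gpam, Gpat3, Gpat4, Agpat2, Agpat3, Lpin1, Lpin2, Dgat1, Dgat2 and Mogat1. They were chosen by name, through their Ensembl identifiers, and all 10 were found among the 41388 gene identifiers counted. All 10 also passed the filter on low values, which kept 14065 genes with a CPM (counts scaled to library depth) above 1 in at least 2 libraries. Liver RNA of 25 male C57B/6J mice, aged 20 weeks, was sequenced, with 1 library per mouse. WT mice carried LoxP-flanked Sirt1 alleles without Cre, and LKO mice carried the same alleles with an Albumin-Cre transgene, which is active in hepatocytes. Every mouse, controls included, had received an AAV8 virus, either an empty vector (EV) or one that expresses NAMPT from the thyroxine-binding globulin promoter, which is also a hepatocyte promoter. There were 3 WT EV mice on chow (chow WT EV), and on 12 weeks of Western diet there were 6 WT EV, 6 WT NAMPT, 5 LKO EV and 5 LKO NAMPT mice. NAMPT carries out a step of NAD salvage, SIRT1 is a deacetylase that consumes NAD, and the design asks whether the effect of NAMPT in the fatty liver needs hepatocyte SIRT1.

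Hepatocytes build triglyceride on the endoplasmic reticulum and the outer mitochondrial membrane by adding acyl chains to glycerol 3-phosphate in sequence. Glycerol 3-phosphate acyltransferases (Gpam, the mitochondrial enzyme also called GPAT1, and the microsomal Gpat3 and Gpat4) add the first chain, acylglycerol phosphate acyltransferases (AGPATs) add the next and make phosphatidic acid, and the lipins remove the phosphate to give diacylglycerol. The diacylglycerol acyltransferases Dgat1 and Dgat2 add the last chain. Mogat1 makes diacylglycerol by a side route, from monoacylglycerol. In liver this pathway supplies both lipid droplets and secreted lipoproteins, and several of its genes respond to insulin, to dietary sugar and to fasting.

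Libraries held between 20166175 and 32937326 counts. Summed hepatocyte markers (Alb, Apoa1, Ttr, Cps1 and Hnf4a) ran from 43800 to 73200 CPM. Summed adipocyte markers ran from 0.153 to 75.3 CPM, nearly all of it Cfd, the one of 5 that passed the filter, while Adipoq, Plin1, Lep and Retn did not. Cfd did not pass the test in any comparison, with 0.144 as its lowest limma adjusted p. Summed macrophage markers (Adgre1, Clec4f, Cd68, Lyz2 and Cd5l) reached 790, 760 and 778 CPM in the libraries WT NAMPT 1, 2 and 3, and between 207 and 600 CPM in the other 22 libraries. Sirt1, counted over the whole gene and so also outside any deleted part, was 8.86 ± 0.573 CPM (SD, n = 6) in WT EV and 8.57 ± 1.34 CPM (SD, n = 5) in the libraries labelled LKO EV. It therefore gives no check of the knockout. Nampt was 59.5 ± 10.6 CPM (SD, n = 6) in WT NAMPT against 47.4 ± 6.46 CPM (SD, n = 6) in WT EV, and 79.9 ± 28.4 CPM (SD, n = 5) in LKO NAMPT against 56.1 ± 12.0 CPM (SD, n = 5) in LKO EV.

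Promoter sequence is shown for 3 genes: Gpam, which has the largest share of the first step, and Lpin1 and Lpin2, the pair of genes whose levels varied most alike from mouse to mouse. Each line gives the 250 bases before a RefSeq transcript start (GRCm38.p6), 5′ to 3′ on the gene's strand. Capitals mark a match to a motif that was searched for. The Gpam window lies at chr19:55127239-55127488, minus strand, Lpin1 at chr12:16610967-16611216, minus strand, and Lpin2 at chr17:71183282-71183531, plus strand. None of the 3 windows overlaps an annotated exon. The transcript starts of these windows are not those of the counted gene models: they lie 27.8 kb upstream of the counted start in Gpam, 21.2 kb upstream in Lpin1, and inside the gene in Lpin2. A second Gpam window, whose transcript starts 26 bases before the counted gene, holds 131 exonic bases and is not printed.
Gpam: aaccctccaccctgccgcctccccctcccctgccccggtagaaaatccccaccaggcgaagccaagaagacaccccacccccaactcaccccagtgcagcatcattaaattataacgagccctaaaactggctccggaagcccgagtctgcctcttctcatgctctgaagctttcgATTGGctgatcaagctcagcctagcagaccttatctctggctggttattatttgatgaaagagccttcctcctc
Lpin1: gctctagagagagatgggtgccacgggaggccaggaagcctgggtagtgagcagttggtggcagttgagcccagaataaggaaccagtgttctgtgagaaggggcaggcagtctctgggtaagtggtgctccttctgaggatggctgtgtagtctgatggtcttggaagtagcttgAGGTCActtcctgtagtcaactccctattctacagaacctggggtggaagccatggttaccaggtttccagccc
Lpin2: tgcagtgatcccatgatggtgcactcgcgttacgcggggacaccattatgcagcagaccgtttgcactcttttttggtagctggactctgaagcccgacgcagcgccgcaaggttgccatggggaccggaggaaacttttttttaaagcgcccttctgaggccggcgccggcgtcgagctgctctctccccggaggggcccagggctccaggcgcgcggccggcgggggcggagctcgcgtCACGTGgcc
The capitals in Gpam are a CCAAT box read on the other strand, 74 bases before the start. In Lpin1 they are the short motif AGGTCA, searched for as part of a nuclear receptor site, 74 bases before the start. In Lpin2 they are the E-box CACGTG, 9 bases before the start. RefSeq windows were found for 7 of the 10 genes, which have 10 windows because Gpam has 2 and Lpin2 has 3. Both strands were searched for 4 motifs, and windows that share bases count separately. The E-box occurred in 1 of the 10 windows and in 6.02% of all 32851 windows, the AGGTCA motif in 2 and in 14%, and CCAAT in 2 and in 33.8%. The sterol element TCACNCCAC was in 0 of the 10 windows and in 1.05% of all. A match describes letters in these windows only.

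Levels were compared between genes per exonic length, as CPM per kilobase. In WT EV on Western diet Dgat2 stood highest at 223 ± 28.7 (SD, n = 6), followed by Agpat2 at 170 ± 22.7 and Gpam at 121 ± 42.2. Gpat4 at 44.5 ± 8.22, Agpat3 at 38.5 ± 2.36, Lpin2 at 21.3 ± 9.46 and Lpin1 at 20.3 ± 9.42 formed a middle range, in which neighbours lay within their spreads except Agpat3 and Lpin2. Dgat1 at 6.78 ± 0.641, Mogat1 at 2.62 ± 1.46 and Gpat3 at 2.59 ± 0.756 were lowest. On chow the order was the same except that Gpat3 and Mogat1 changed places: Dgat2 at 151 ± 21.9 (SD, n = 3) led and Mogat1 at 0.17 ± 0.0429 was last.

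Among the isoforms examined, 1 led by its group mean in every step but the lipins. Further isoforms such as Agpat1 were not part of these shares. Gpam gave 70.0% ± 11 (SD, n = 6) of the glycerol 3-phosphate acyltransferase signal per length in WT EV, Gpat4 gave 28.4% ± 11 and Gpat3 gave 1.56% ± 0.426. In the library chow WT EV 3, however, Gpat4 at 51.3% exceeded Gpam at 47.1%. Agpat2 made up 81.4% ± 2.16 of the 2 AGPATs examined, and Dgat2 made up 97.0% ± 0.574 of the 2 DGATs. The lipins were close to even in WT EV, with Lpin1 at 48.8% ± 4.92. The Lpin1 share was 40.2% ± 6.23 (SD, n = 6) in WT NAMPT, 57.7% ± 3.04 (SD, n = 5) in LKO EV and 42.1% ± 6.28 (SD, n = 5) in LKO NAMPT, and these shares were not tested. RNA shares do not measure enzyme activity.

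**Figure D1:**
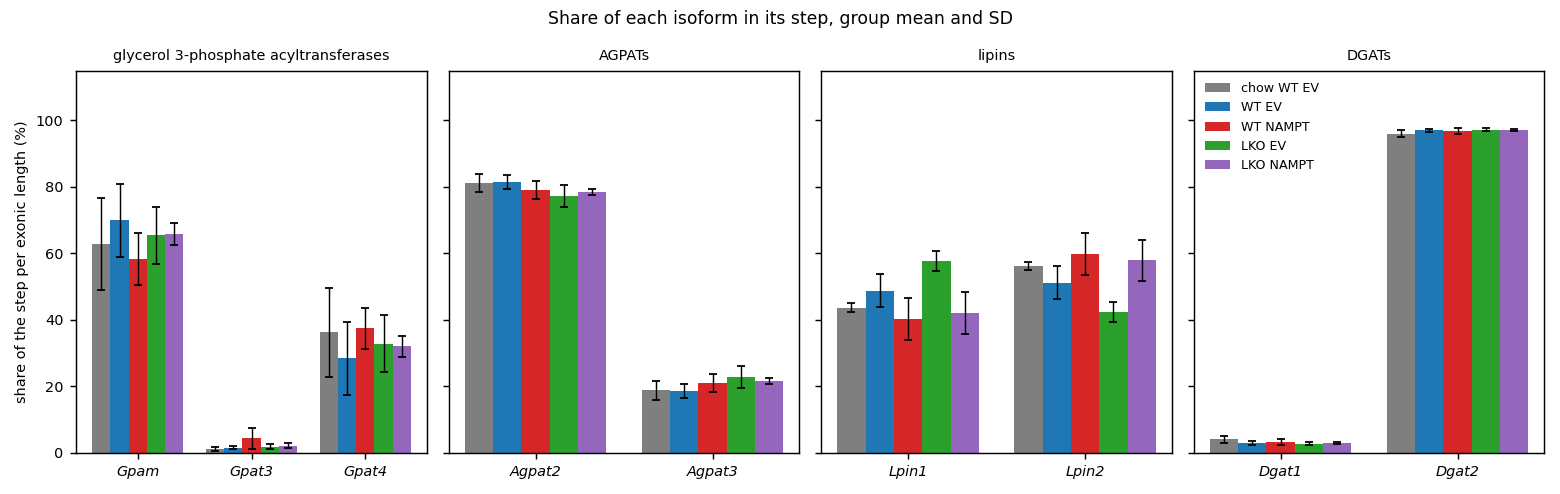
Bars give the mean share (%) that each isoform contributes to its step, per exonic length, in the 5 groups, and error bars give the SD (n = 3 to 6). Gpam, Agpat2 and Dgat2 lead their steps in every group, whereas the mean Lpin1 share runs from 40.2 to 57.7% and exceeds that of Lpin2 only in LKO EV.

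Among WT EV mice, Western diet set against chow gave the most calls in the pathway, together with LKO EV against chow. Of the 10 genes 6 rose, none fell, and all 10 fold changes were positive, with a median log2 fold change of 0.53 against −0.005 over all genes tested. In this comparison limma called 22% of the 14065 genes at an adjusted p of 0.05 or less, and 10.1% as higher. The 6 that rose were Gpam and Gpat3 at the first step, Agpat2 and Agpat3 at the next, Dgat2 at the last and Mogat1 on the side route. A higher RNA level in bulk liver can reflect more RNA per cell or more cells of a type, and these cannot be told apart.

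Mogat1 showed the largest fold. It was 0.331, 0.267 and 0.197 CPM in the 3 chow libraries, from 8, 6 and 5 counts. In WT EV on Western diet the lowest value was 0.601, the median 3.92 and the highest 6.93 CPM. The groups did not overlap, although the lowest Western diet library, WT EV 8, rests on 13 counts. Its log2 fold change was 3.48 ± 1.04 (SE), or 11.2-fold, with a limma adjusted p of 0.0184, and its size is uncertain at such counts. Mogat1 also shares 200 exonic bases with BC035947 on the other strand, a gene at 0 to 0.97 CPM over the libraries. The paper states that only unambiguous reads were counted. If counting ignored the strand, reads within the shared bases would therefore be missing from both genes.

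Gpat3, a microsomal acyltransferase of low abundance here, was 2.40, 3.12 and 5.92 CPM on chow and ran from 5.40 through a median of 8.75 to 13.3 CPM in WT EV on Western diet. Only the lowest Western diet library lay below the highest chow library. It rose by 1.49 ± 0.34 (SE) on the log2 scale, adjusted p 0.00324. Gpam, the mitochondrial enzyme, was 304, 265 and 183 CPM on chow and from 193 through 461 to 642 CPM on Western diet, where WT EV 8 again was lowest and the other 5 libraries exceeded all chow libraries. Its log2 fold change was 0.71 ± 0.24 (SE), adjusted p 0.0363. Gpat4 was 112, 124 and 205 CPM on chow against 132 to 224 CPM, which overlap, with a log2 fold change of 0.43 ± 0.16 (SE) and an adjusted p of 0.0621.

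Agpat3 had the lowest adjusted p of the 10 genes. It was 199, 205 and 206 CPM on chow and from 273 through 287 to 318 CPM in WT EV on Western diet, with a wide gap between the groups. It rose by 0.51 ± 0.08 (SE) on the log2 scale, adjusted p 5.06e-05. Agpat2, the enzyme whose loss causes lipodystrophy, was 287, 259 and 208 CPM on chow and from 303 through 372 to 421 CPM on Western diet, without overlap, and rose by 0.45 ± 0.15 (SE), adjusted p 0.0318.

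At the end of the pathway Dgat2 was 381, 354 and 285 CPM on chow and from 438 through 486 to 613 CPM on Western diet. The groups did not overlap, and the log2 fold change was 0.47 ± 0.12 (SE), adjusted p 0.0080. Dgat1, its unrelated counterpart, was 17.8, 17.6 and 21.3 CPM against 18.3 to 23 CPM, with a log2 fold change of 0.21 ± 0.08 (SE) and an adjusted p of 0.0531. The lipins, which also act as transcriptional coregulators, spread widely. Lpin1 was 49.2, 62.0 and 58.9 CPM on chow and from 51.1 through 114 to 188 CPM on Western diet, at 0.88 ± 0.34 (SE) and adjusted p 0.0615. Lpin2 was 143, 167 and 157 CPM against 104 to 402 CPM, at 0.55 ± 0.25 (SE) and adjusted p 0.123. In both lipins WT EV 8 was the lowest Western diet library.

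These calls depended on single mice, as did the number of calls over all 14065 genes, which was 3101 with every library. Without chow WT EV 1 the number of the 10 genes that rose was 2 (952 called over all genes), without chow WT EV 2 it was 1, Agpat3 (843), without WT EV 6 it was 4 (2873), and without WT EV 8 it was 9, all but Gpat4 (3171). Agpat3 was called in all 9 fits that left out 1 library, Dgat2 in 8, Gpat3 and Mogat1 in 7, Gpam in 3 (without WT EV 2, 7 or 8) and Agpat2 in 2 (without WT EV 4 or 8). Gpat3 and Mogat1 lost their calls without chow WT EV 1 or chow WT EV 2, with adjusted p of up to 0.204 and 0.236, and Dgat2 lost it without chow WT EV 2, at 0.0545. Limma without quality weights called 2 of the 10 genes, and edgeR's quasi-likelihood test called 3, where 1201 and 1322 of all genes were called.

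Genes of the lists around the pathway were called too, most of them as higher. Of the 3 droplet formation genes tested all 3 rose: Fitm1 by 1.93 ± 0.35 (SE), Fitm2 by 0.72 ± 0.16 and Bscl2, which encodes seipin, by 0.34 ± 0.09 on the log2 scale. Of 6 transcription regulators 3 rose: Srebf1, the insulin-responsive lipogenic factor, by 1.63 ± 0.19, Pparg by 1.29 ± 0.27 and Ppara by 1.04 ± 0.16. Of 7 genes that supply glycerol 3-phosphate and acyl-CoA, Gpd1 (0.72 ± 0.17) and Gpd1l (0.32 ± 0.11) rose and Acsl4 fell by 0.68 ± 0.14. Of 14 genes of the phospholipid branch 3 rose, Cds1 (1.16 ± 0.33), Chpt1 (0.69 ± 0.19) and Crls1 (0.33 ± 0.12), and of 6 other isoforms of the same steps only Lclat1 rose (0.25 ± 0.09).

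Markers of the feeding state, of other cells and of the clock also differed between these diets. The feeding and fasting genes that changed included Pklr, which rose by 1.81 ± 0.23 (SE), and Cpt1a, which rose by 0.93 ± 0.12 on the log2 scale, while Pdk4 fell by 1.29 ± 0.34. Of 5 macrophage markers 2 rose, with sums of 207 to 259 CPM on chow and 254 to 375 CPM in WT EV. The summed adipocyte markers were 0.165 to 0.197 CPM on chow and 1.06 to 61.4 CPM in WT EV, without overlap, though Cfd was not called. Among other cell markers, 1 of 4 stellate cell genes was called, Lrat, which rose by 0.54 ± 0.11. Of 3 endothelial genes Kdr fell by 0.20 ± 0.07, and the other 2 were positive and not called. Of 5 hepatocyte genes Cps1 fell by 1.22 ± 0.25, and the other 4 were not called, 2 of them positive. The pancreatic gene Cela1, the only 1 of its list tested, fell by 1.31 ± 0.30. Of 12 clock genes 6 rose and 4 fell, among them Dbp at 4.04 ± 1.17, Npas2 at −1.59 ± 0.39 and Arntl at −1.58 ± 0.30. The hour of tissue collection is not given in the sources used here, and the part of the clock, of feeding or of other cells in the pathway's change was not tested.

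The other Western diet groups were set against the same 3 chow libraries, so these comparisons share their controls. In LKO EV 6 of the 10 genes rose, where 27.8% of all genes were called and 13% were higher. In LKO NAMPT 5 rose, where 27.5% were called and 13.8% higher. In WT NAMPT 2 rose, where 40.3% were called and 20.2% higher. None of the 10 fell in any of the 3. The median log2 fold change was 0.55 in LKO EV, 0.51 in LKO NAMPT and 0.22 in WT NAMPT.

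Agpat3 and Gpat3 rose in all 4 Western diet groups. For Agpat3 the log2 fold changes against chow were 0.51 ± 0.08 (SE) in WT EV, 0.25 ± 0.08 in WT NAMPT, 0.53 ± 0.08 in LKO EV and 0.54 ± 0.08 in LKO NAMPT. For Gpat3 they were 1.49 ± 0.34, 2.18 ± 0.33, 1.47 ± 0.34 and 1.62 ± 0.35. Mogat1 stood at 3.48 ± 1.04, 2.38 ± 1.08, 3.87 ± 1.03 and 4.16 ± 1.03 in the same order, and its adjusted p of 0.0815 in WT NAMPT was the only one of the 4 above 0.05. Dgat2 rose in LKO EV (0.56 ± 0.12) and LKO NAMPT (0.52 ± 0.13), and was 0.19 ± 0.13 with an adjusted p of 0.236 in WT NAMPT.

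Lpin1 in LKO EV did not overlap with chow. It was 156, 166, 208, 268 and 154 CPM in LKO EV, each more than the 62.0 CPM of the highest chow library, and rose by 1.70 ± 0.35 (SE) on the log2 scale, adjusted p 0.000959. Lpin2 rose there as well, by 0.89 ± 0.26, adjusted p 0.0127. In LKO NAMPT Lpin1 was 0.42 ± 0.36 and Lpin2 0.62 ± 0.27, neither of them called, and in WT NAMPT they were 0.12 ± 0.35 and 0.30 ± 0.26. Gpat4 was called only in LKO NAMPT, at 0.50 ± 0.18, adjusted p 0.0351, and its estimates of 0.40 ± 0.17 in WT NAMPT and 0.37 ± 0.17 in LKO EV lay within 1 SE of that. Gpam was 0.04 ± 0.25 in WT NAMPT, 0.37 ± 0.24 in LKO EV and 0.42 ± 0.26 in LKO NAMPT. Agpat2 was 0.00 ± 0.15, 0.14 ± 0.15 and 0.20 ± 0.16, and Dgat1 was −0.03 ± 0.08, 0.16 ± 0.08 and 0.11 ± 0.08, in the same order.

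**Figure D2:**
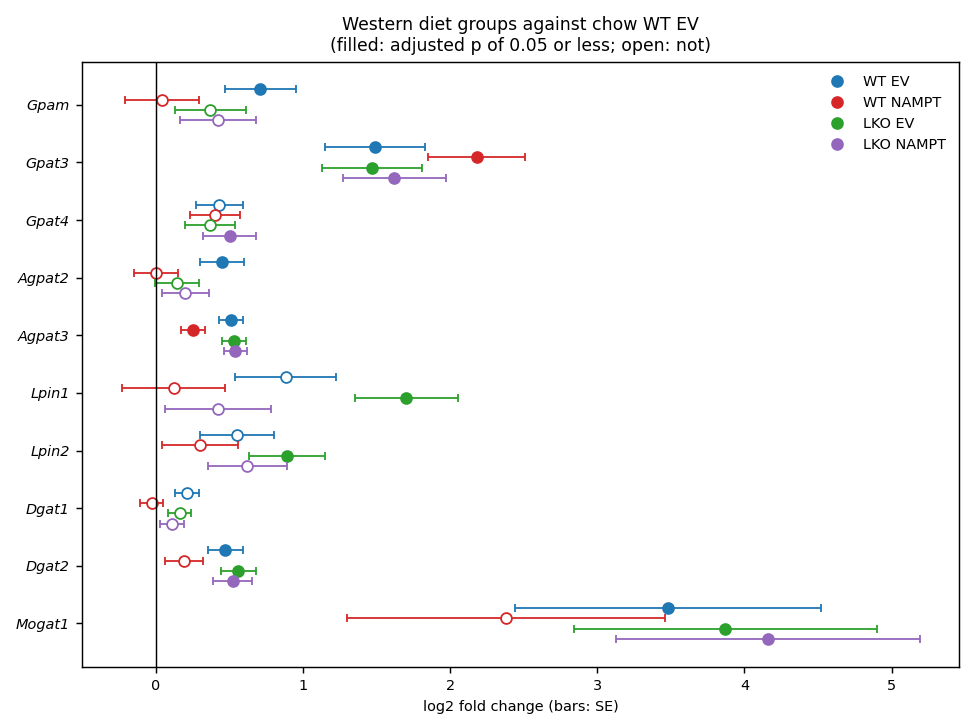
The x axis gives the log2 fold change of each gene in the 4 Western diet groups against chow WT EV, with bars for the SE and filled points for an adjusted p of 0.05 or less. Mogat1 lies farthest from 0, from 2.38 to 4.16, Agpat3 and Gpat3 are filled in all 4 groups, and WT NAMPT has the lowest estimate of the 4 groups for every gene but Gpat3 and Gpat4.

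Among these comparisons as well chow WT EV 1 and chow WT EV 2 mattered. Without either of them the counts were 3 in LKO EV, 2 in LKO NAMPT and 1 in WT NAMPT. Calls over all genes fell in the same fits, from 3917 to 1217 or 1074 in LKO EV, from 3874 to 1421 or 1282 in LKO NAMPT and from 5663 to 2098 or 1655 in WT NAMPT. Still, Agpat3 and Dgat2 in both LKO groups, Lpin1 in LKO EV and Gpat3 in WT NAMPT were called in every fit that left out 1 library. In WT NAMPT the count was also 1 without WT NAMPT 5, which ended the call of Agpat3, and 4 without WT NAMPT 2, with 5649 and 5115 calls over all genes. In LKO NAMPT the call of Gpat4 also ended without LKO NAMPT 2 or 3. WT NAMPT without its libraries 1, 2 and 3, an alternative chosen after the data were seen, gave 5 genes that rose, with Agpat2 at 0.42, Dgat2 at 0.38 and Mogat1 at 3.25 added, while calls over all genes fell from 5663 to 4569.

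NAMPT against EV in WT mice on Western diet went mostly the other way. Of the 10 genes 1 rose (Gpat3), 3 fell (Agpat2, Agpat3 and Dgat1) and 6 were not called. Over all genes 13.4% were called, 7.67% as higher and 5.77% as lower. Of the 10 fold changes 9 were negative, with a median of −0.27 against 0.004 over all genes, and scaling to library size alone, which moved the median of all genes to 0.16, left the 10 genes at a median of −0.12 with Gpat4 positive.

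Gpat3 was the gene that rose. It ran from 5.40 through a median of 8.75 to 13.3 CPM in WT EV and from 5.87 through 14.9 to 22.1 CPM in WT NAMPT. Libraries WT NAMPT 1 to 4, at 19.3, 22.1, 15.0 and 14.7 CPM, exceeded every WT EV library, and the other two lay within the WT EV range. The log2 fold change was 0.69 ± 0.23 (SE), or 1.62-fold, with a limma adjusted p of 0.0450. Gpat3 shares exonic bases with the antisense gene 4930458D05Rik, which did not exceed 1.12 CPM, and the strand setting of the counting is not stated.

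Gpam, the main isoform of the same step, did not pass the test. It ran from 193 through 461 to 642 CPM in WT EV and from 132 through 252 to 431 CPM in WT NAMPT, with overlap. The log2 fold change was −0.67 ± 0.24 (SE), adjusted p 0.0571. WT NAMPT 2 and WT NAMPT 1 were the lowest of the 12 libraries at 132 and 162 CPM. Gpat4 was 176 ± 32.4 CPM (SD, n = 6) in WT EV and 160 ± 36.5 CPM (SD, n = 6) in WT NAMPT, with a log2 fold change of −0.02 ± 0.16 (SE) that turned positive under other scalings.

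Both AGPATs among the 10 genes fell, while Agpat1, a further gene of the same step, rose by 0.42 ± 0.10 (SE) on the log2 scale. Agpat2 ran from 303 through 372 to 421 CPM in WT EV and from 175 through 253 to 384 CPM in WT NAMPT, where 4 of the 6 libraries lay below every WT EV library. It fell by 0.46 ± 0.15 (SE) on the log2 scale, adjusted p 0.0388. Agpat3 ran from 273 through 287 to 318 CPM and from 189 through 242 to 287 CPM, where 5 of the 6 libraries lay below every WT EV library. It fell by 0.26 ± 0.08 (SE) on the log2 scale, adjusted p 0.0269. Agpat2 overlaps Egfl7 by 64 exonic bases on the other strand.

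Dgat1 fell within a narrow range. It ran from 18.3 through 20.7 to 23 CPM in WT EV and from 16.7 through 17.5 to 19.4 CPM in WT NAMPT, with 5 of 6 libraries below all WT EV libraries. It fell by 0.25 ± 0.07 (SE) on the log2 scale, adjusted p 0.0321. Dgat2, the major isoform, ran from 438 through 486 to 613 CPM and from 268 through 406 to 587 CPM, with a log2 fold change of −0.28 ± 0.12 (SE) and an adjusted p of 0.117.

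The lipins and Mogat1 were not called. Lpin1 ran from 51.1 through 114 to 188 CPM in WT EV and from 27.3 through 51.5 to 126 CPM in WT NAMPT, at −0.77 ± 0.33 (SE), adjusted p 0.112. Lpin2 was 260 ± 116 CPM (SD, n = 6) and 178 ± 60.6 CPM (SD, n = 6), at −0.25 ± 0.25 (SE), adjusted p 0.528. Mogat1 ran from 0.601 through 3.92 to 6.93 CPM and from 0.212 through 1.88 to 3.32 CPM, at −1.10 ± 0.54 (SE), adjusted p 0.167. WT NAMPT 1 and 2, with 10 and 9 Mogat1 counts, were close to the chow libraries.

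**Figure D3:**
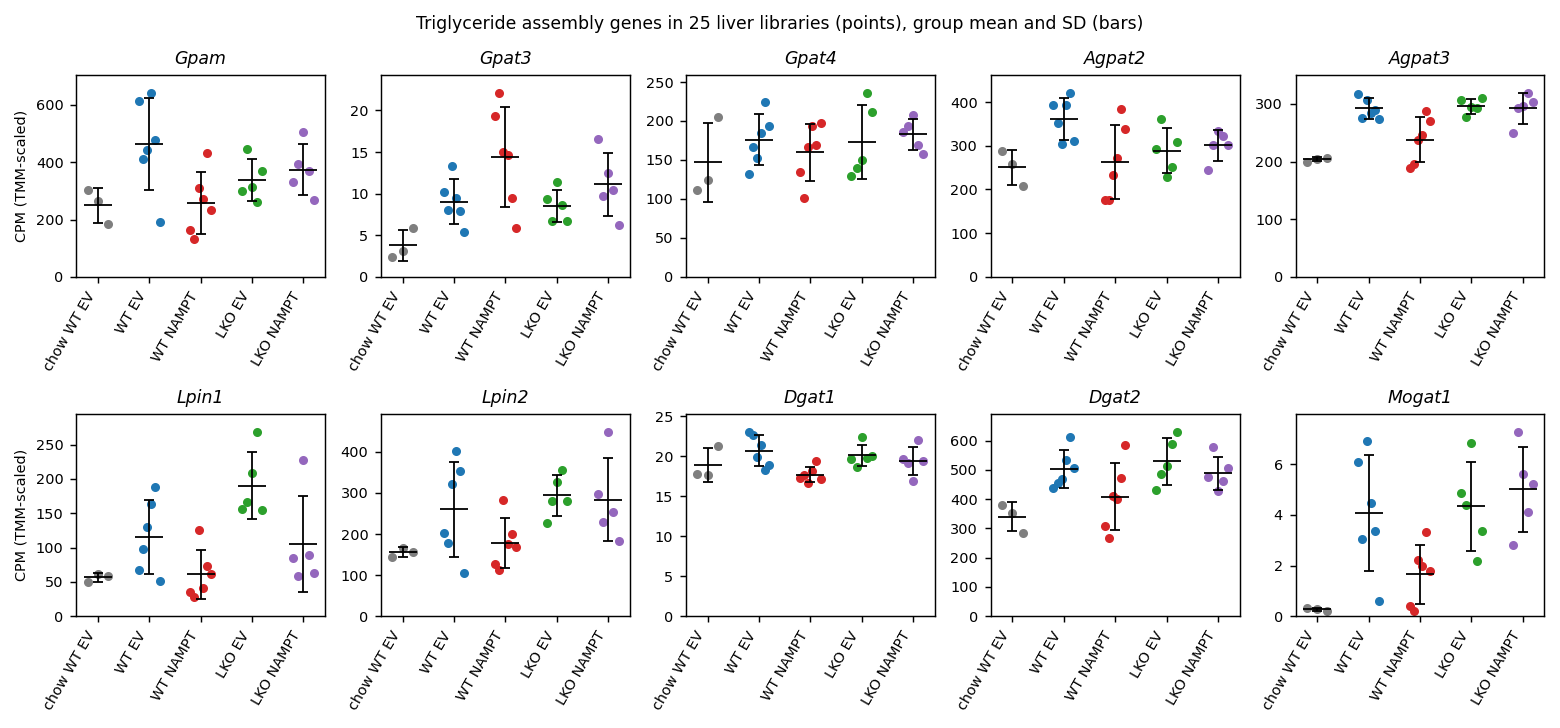
Each point is the TMM-scaled CPM of 1 library in the 5 groups, and black bars give the mean and SD (n = 3 to 6). In WT NAMPT the points for Gpat3 spread upward to 22.1 CPM, those for Agpat3 spread downward to 189 CPM, and Mogat1 is near 0 in all 3 chow libraries.

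Markers of other cells were also higher in some WT NAMPT libraries. Of the 5 macrophage markers 4 rose in this comparison (Lyz2, Cd68, Adgre1 and Cd5l), and their sum was 249 to 790 CPM in WT NAMPT against 254 to 375 CPM in WT EV. Of 3 genes listed as lymphocyte markers only Ptprc, a gene of leukocytes in general, was called, and it rose. The sum of the 3 was 53.4, 52.7, 44.8 and 30.1 CPM in WT NAMPT 1 to 4 against at most 24.3 CPM in WT EV. Of 3 neutrophil markers tested S100a9 rose, and the summed neutrophil markers were 11.5, 14.8, 6.31 and 11.9 CPM in WT NAMPT 1 to 4 against at most 5.32 CPM in WT EV. WT NAMPT 4 thus stood above WT EV in these sums too. Of 4 stellate cell markers only Col1a1 was called, which rose by 1.70 ± 0.48 (SE) on the log2 scale, and 1 was negative. Stellate sums were 258 to 453 CPM in WT NAMPT against 246 to 366 CPM in WT EV. Of 3 endothelial markers only Pecam1 was called, which rose by 0.36 ± 0.11, and 1 was negative. Endothelial sums were 170 to 196 CPM in WT NAMPT against 172 to 200 CPM in WT EV. Cfd was −2.61 ± 1.21, with an unadjusted p of 0.0416 and a limma adjusted p of 0.147. Without WT NAMPT 1, 2 and 3, an alternative chosen after the data were seen, 0 of the 14065 genes were called by limma, against 1890 with every library, and 2263 had an unadjusted p under 0.05. Among the 10 genes 1 had an unadjusted p under 0.05, and the calls of the marker genes and of the lists around the pathway ended as well. The log2 fold changes were then 0.18 for Gpat3, −0.03 for Agpat2, −0.08 for Agpat3, −0.17 for Dgat1 and −0.25 for Gpam. Lpin1 was −0.70 in that fit. Fewer samples remained in it, and the part of macrophages or other cells in these changes was not tested.

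**Figure D4:**
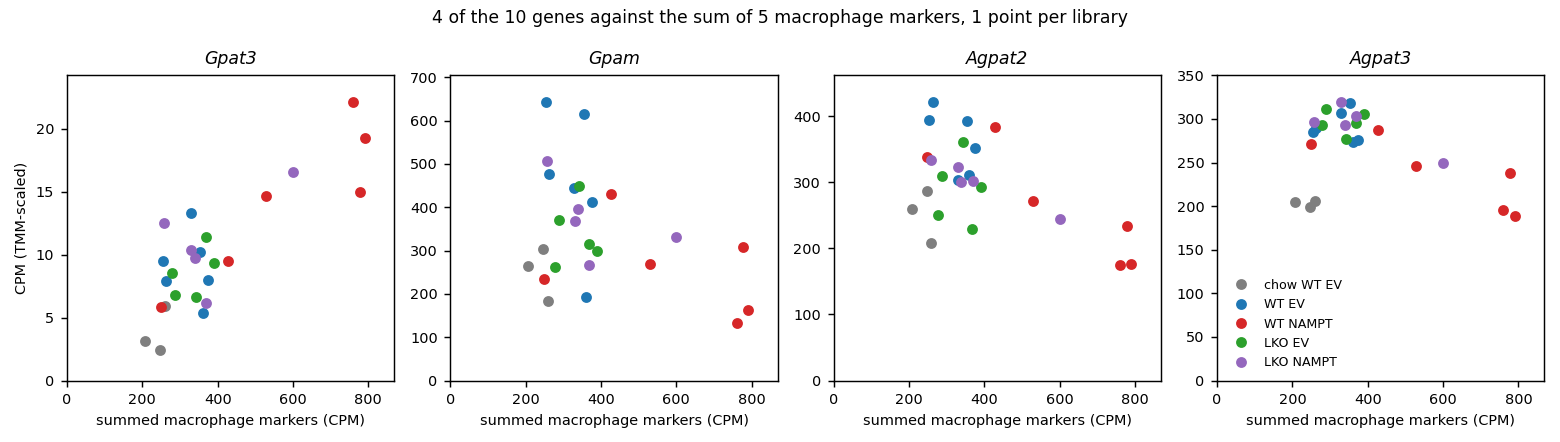
Each point is 1 library, with the summed CPM of 5 macrophage markers on the x axis and the CPM of Gpat3, Gpam, Agpat2 or Agpat3 on the y axis. WT NAMPT 1, 2 and 3 lie at 760 to 790 CPM of marker, with Gpat3 between 15.0 and 22.1 CPM and Agpat3 between 189 and 238 CPM.

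Single libraries also carried the calls. Without WT EV 2, WT EV 6, WT NAMPT 1, WT NAMPT 2 or WT NAMPT 3 the limma count was 0 in each case, with 5 to 8 of the 10 genes at an unadjusted p under 0.05. The calls over all genes fell as well in these fits, from 1890 to 291, 624, 1246, 731 and 132 in the same order. It was 2 without WT EV 1 or WT EV 7, 3 without WT NAMPT 4 and 5 without WT EV 8 or WT NAMPT 5. Calls over all genes did not always move with it: they were 2182 and 1451 without WT EV 1 or WT EV 7, 1726 without WT NAMPT 4, and 1654 and 2795 without WT EV 8 or WT NAMPT 5. Agpat3 was called in 7 of the 12 fits, Dgat1 in 6, Agpat2 in 5 and Gpat3 in 4. The edgeR quasi-likelihood test called 0 of the 10 genes, with 8 at an unadjusted p under 0.05, the edgeR exact test called 1 (Gpam) and DESeq2 called 2 (Gpam and Agpat3). Over all genes they called 3.04%, 6.05% and 8.49%.

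Genes of the lists around the pathway were called in both directions. Of 7 supply genes Acsl1, the main hepatic acyl-CoA synthetase, fell by 0.83 ± 0.18 (SE) and Gpd1 fell by 0.55 ± 0.17 on the log2 scale, while Acsl4 rose by 0.41 ± 0.13. Of 3 droplet formation genes Fitm1 fell by 1.23 ± 0.31 and Bscl2 fell by 0.37 ± 0.09. Of 14 phospholipid genes 3 fell, Chpt1 by 0.69 ± 0.18, Selenoi by 0.49 ± 0.11 and Cept1 by 0.34 ± 0.11. Among 6 other isoforms of the same steps Agpat1 rose by 0.42 ± 0.10, and among 6 regulators Mlxipl, which encodes the carbohydrate-responsive factor ChREBP, fell by 0.40 ± 0.13. None of the 7 feeding and fasting genes was called, and of 12 clock genes Arntl (−1.99 ± 0.44), Npas2 (−1.98 ± 0.64) and Clock (−0.43 ± 0.13) fell.

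NAMPT against EV in the mice labelled LKO called 0 of the 10 genes by limma, and 1, Lpin1, had an unadjusted p under 0.05. DESeq2 and both edgeR tests (quasi-likelihood and exact) called 0 as well, each with 1 at an unadjusted p under 0.05. Over all genes limma called 0.00711%, and DESeq2, the quasi-likelihood test and the exact test called 6, 0 and 3 genes, with 918 at an unadjusted p under 0.05 by quasi-likelihood. The median log2 fold change of the 10 genes was 0.03 against 0.016 over all genes.

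Lpin1 was the gene with the largest estimate. It was 156, 166, 208, 268 and 154 CPM in LKO EV and 85.4, 59.2, 227, 88.4 and 62.9 CPM in LKO NAMPT. In LKO NAMPT 4 libraries lay below every LKO EV library, and LKO NAMPT 3 lay within their range. The log2 fold change was −1.28 ± 0.35 (SE), with an unadjusted p of 0.00107 and an adjusted p of 0.194. Lpin2 differed less, at 226 to 356 CPM in LKO EV and 184 to 448 CPM in LKO NAMPT and a log2 fold change of −0.27 ± 0.26 (SE).

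The other 8 genes had estimates near 0. They were 0.05 ± 0.25 (SE) for Gpam, 0.15 ± 0.25 for Gpat3, 0.13 ± 0.17 for Gpat4, 0.06 ± 0.15 for Agpat2 and 0.01 ± 0.08 for Agpat3. They were −0.05 ± 0.08 for Dgat1, −0.03 ± 0.13 for Dgat2 and 0.29 ± 0.40 for Mogat1. The lowest adjusted p among these 8 and Lpin2 was 0.785.

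Whether the NAMPT effect differed between the genotypes was tested with the interaction term, the effect in LKO minus the effect in WT. None of the 10 genes was called by limma, and 0.00711% of all genes were, that is 1 gene. This background rests on single libraries: 676 genes (4.81%) were called without LKO NAMPT 1, 638 (4.54%) without WT NAMPT 6 and 366 (2.6%) without WT NAMPT 5, with 0 of the 10 genes among them and 3, 4 and 6 of the 10 at an unadjusted p under 0.05. With every library an unadjusted p under 0.05 was found for 4 of the 10: Gpam at 0.72 ± 0.34 (SE), Agpat2 at 0.52 ± 0.21, Agpat3 at 0.26 ± 0.11 and Mogat1 at 1.4 ± 0.67, with adjusted p between 0.162 and 0.231. The edgeR quasi-likelihood test and DESeq2 also called 0 of the 10, with 3 and 4 at an unadjusted p under 0.05, and DESeq2 called 19 of all genes. Gpat3 stood at −0.54 ± 0.34, Gpat4 at 0.16 ± 0.23, Dgat1 at 0.20 ± 0.11 and Dgat2 at 0.25 ± 0.17. Lpin1 at −0.51 ± 0.47 and Lpin2 at −0.02 ± 0.36 had the wide errors of genes that vary from mouse to mouse. These data therefore do not show that the NAMPT effect on the 10 genes differed between WT and LKO.

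**Figure D5:**
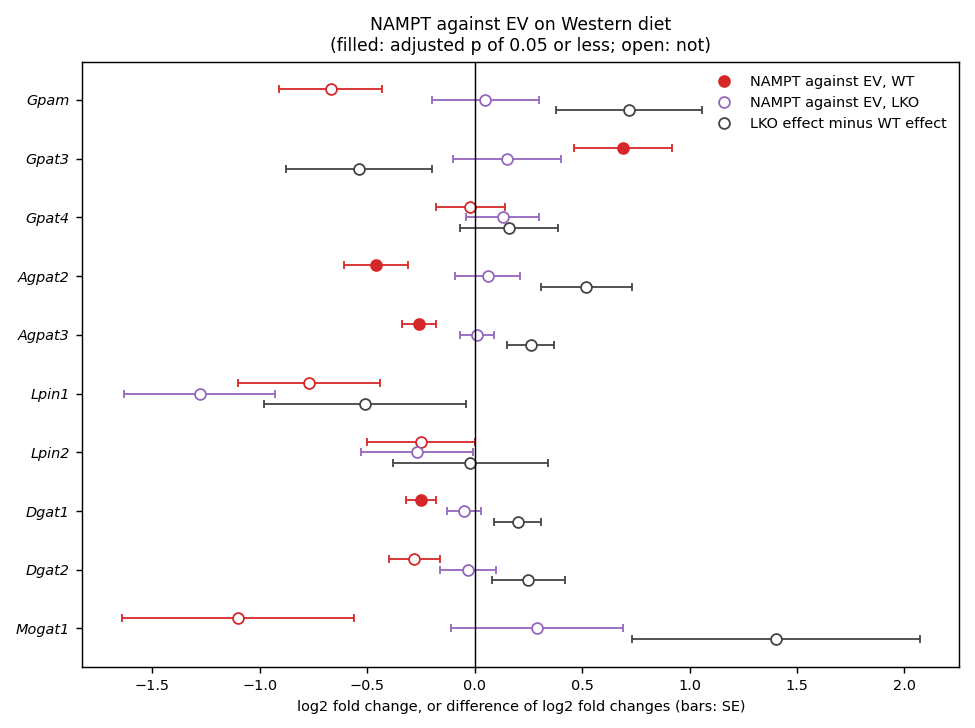
The x axis gives log2 fold changes of NAMPT against EV in WT and in LKO and, in grey, their difference, with bars for the SE and filled points for an adjusted p of 0.05 or less. The filled points are Gpat3 at 0.69, Agpat2 at −0.46, Agpat3 at −0.26 and Dgat1 at −0.25, all in WT.

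LKO NAMPT set against WT NAMPT called 2 of the 10 genes, both higher in LKO NAMPT, where 7.96% of all genes were called and 4.18% were higher. Mogat1 was 2.83, 7.27, 5.63, 4.10 and 5.22 CPM in LKO NAMPT against 0.212 to 3.32 CPM in WT NAMPT, and 4 of the 5 exceeded all WT NAMPT libraries. The log2 fold change was 1.79 ± 0.52 (SE), or 3.45-fold, adjusted p 0.0376. Agpat3 was 249, 293, 296, 319 and 303 CPM against 189 to 287 CPM, again with 4 of 5 above, at 0.29 ± 0.08 (SE) and adjusted p 0.0337.

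The other estimates were 0.38 ± 0.25 (SE) for Gpam, −0.56 ± 0.23 for Gpat3, 0.10 ± 0.17 for Gpat4 and 0.21 ± 0.15 for Agpat2. They were 0.30 ± 0.34 for Lpin1, 0.32 ± 0.27 for Lpin2, 0.14 ± 0.08 for Dgat1 and 0.33 ± 0.13 for Dgat2. The lowest adjusted p among these 8 was 0.0921, for Dgat2. The median of the 10 was 0.29 against −0.005 over all genes. Around the pathway Fitm1 (1.19 ± 0.32) and Fitm2 (0.53 ± 0.16) of 3 droplet genes, Acsl1 (0.76 ± 0.19) and Gk (0.57 ± 0.16) of 7 supply genes and Chpt1 (0.64 ± 0.19) of 14 phospholipid genes were higher.

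Both calls depended on the WT NAMPT libraries named above and on others. The count was 0 without WT NAMPT 1, 2, 3 or 4 or without LKO NAMPT 2, 3 or 5, with 2 to 5 genes at an unadjusted p under 0.05. Over all genes 1120 were called with every library, and 639, 150, 78 and 653 without WT NAMPT 1, 2, 3 or 4 and 0, 200 and 2 without LKO NAMPT 2, 3 or 5, where the 0 had 2287 genes at an unadjusted p under 0.05. The count of the 10 genes was 3 without WT NAMPT 5 or LKO NAMPT 1 and 4 without WT NAMPT 6, where 1956, 2258 and 2287 of all genes were called. In each of these 3 fits Gpat3 was among the calls, as lower in LKO NAMPT. DESeq2 called 0 of the 10, with 4 at an unadjusted p under 0.05, and so did edgeR's quasi-likelihood test (4) and its exact test (5). Over all genes these tests called 294, 45 and 173. Without WT NAMPT 1, 2 and 3 together the estimates were 0.89 for Mogat1 and 0.09 for Agpat3, and 0 of the 10 genes were called with 1 at an unadjusted p under 0.05, where 28 of all genes were called. The summed macrophage markers were 257 to 600 CPM in LKO NAMPT. All 5 markers were negative against WT NAMPT with a limma unadjusted p under 0.05, and 1 was called. Of 3 genes listed as lymphocyte markers 1 was called lower as well, and of 3 neutrophil markers tested 0 were called.

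LKO EV against WT EV, the effect of the genotype label alone, called 0 of the 10 genes by limma, where 0.00711% of all genes were called. Lpin1 at 0.82 ± 0.33 (SE) and Agpat2 at −0.31 ± 0.14 had an unadjusted p under 0.05, with adjusted p of 0.688 and 0.761. DESeq2 and both edgeR tests called 0 of the 10, with 0 at an unadjusted p under 0.05, and at most 11 of all genes. The Lpin1 values overlapped, at 154 to 268 CPM in LKO EV and 51.1 to 188 CPM in WT EV, with 2 of the 5 LKO EV libraries above every WT EV library. The rest were −0.35 ± 0.23 for Gpam, −0.02 ± 0.24 for Gpat3, −0.06 ± 0.16 for Gpat4 and 0.02 ± 0.07 for Agpat3. They were 0.35 ± 0.25 for Lpin2, −0.06 ± 0.07 for Dgat1, 0.09 ± 0.12 for Dgat2 and 0.39 ± 0.43 for Mogat1.

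The genes also varied together from mouse to mouse inside the groups. Pearson correlations of log2 (CPM + 0.5) were taken over the 25 libraries after the group means were removed, as a description only, since all genes of a library share its depth, composition and tissue piece. Lpin1 and Lpin2 were most alike at 0.91, and each was the other's nearest of all 14065 genes. Gpam lay at 0.81 with Mogat1, 0.72 with Agpat2 and 0.69 with Lpin2, and Agpat2 lay at 0.73 with Agpat3. Gpat3 ran against Dgat2 at −0.72 and against Agpat2 at −0.69. Isoforms of 1 step need not vary alike: Gpat4 lay at 0.07 with Gpam, and Dgat1 at −0.18 with Dgat2.

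Over all genes the nearest patterns were these. For Gpam they were the fatty acid synthase gene Fasn at 0.93, the malic enzyme gene Me1 at 0.91 and Acat2 at 0.90. For Mogat1 they were Pctp at 0.92, Mrpl16 at 0.89 and Me1 at 0.87. For Gpat3 they were Srgap2 at 0.88, the endothelial adhesion gene Vcam1 at 0.88 and Btg2 at 0.87. For Agpat2 they were Ppp1r3b and Grik5 at 0.87 and Paqr9 at 0.86, and for Agpat3 Hsd17b4, a peroxisomal beta-oxidation enzyme, at 0.92, Pgrmc1 at 0.91 and Reep6 at 0.90.

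For Dgat2 the nearest were Pdp2 at 0.93, Slc46a3 at 0.92 and Prodh at 0.91, and for Gpat4 Xylb at 0.90 and Fh1 and Asl at 0.89. Rhobtb1 came after the lipins themselves at 0.88 for Lpin1 and 0.84 for Lpin2. Dgat1 had the weakest neighbours, Gm12222 and Trappc4 at 0.77 and Ntn4 at 0.72.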

How the data were processed

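Poly-A selected RNA of 25 mouse livers was sequenced with single reads. The authors aligned reads to GRCm38 with STAR (2.5.1a per the processing notes) and deposited raw counts per gene from featureCounts (1.4.6-p5 per the processing notes), with CPM values and RPKM values computed from them. The deposited CPM and RPKM were recomputed from counts and gene lengths, with relative deviations of at most 5.9e-14, and only counts were used further. Whether counting used the strand is not stated. Multi-mapped reads could lower close paralogs.

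Groups follow the sample titles. The treatment text in the labels names the viral insert as SIRT1, and the titles, which name NAMPT, were followed. No batch is given in the labels. Symbols were joined by Ensembl identifier (40254 of 41388). Genes above 1 CPM in at least 2 libraries were kept, and 4 ribosomal RNA genes were left out. Size factors were TMM (edgeR 4.0.16), the test was limma 3.58.1 with voomWithQualityWeights in R 4.3.3, with TMM, the filter, the weights and the adjustment after the study's methods. All 25 libraries entered 1 fit with 1 mean per group and no covariates, a choice made here. Adjusted p-values are Benjamini-Hochberg over 14065 genes, called at 0.05 or less. SE is from the limma fit, SD is between mice, and CPM in the text are TMM-scaled. Fold changes come from the weighted fit on the log2 scale, whereas printed means and ranges are unweighted. Library weights ran from 0.336 (WT NAMPT 6) to 2.5 (chow WT EV 2). A fold change can therefore differ from the ratio of the printed means, as for Lpin2 in WT NAMPT against WT EV. P-values measure the spread between mice that each gave 1 library. No 2 libraries of a group were copies (smallest chi-square per degree of freedom 13.7). Fits were tested on simulated data.

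All 10 genes are named in each comparison, up to 3 called genes per list around the pathway are named by size of fold change, and the 3 nearest genes are given for each gene. The genes and lists were chosen with earlier results of these data known. Of the lists, Mogat2 did not pass the filter and Ldaf1 was not matched. A member of the feeding and fasting list is not reported here. Alternatives were the edgeR quasi-likelihood and exact tests, DESeq2 1.42.0, no quality weights, upper-quartile factors, library size alone, no filter (29119 genes), fits on only the groups compared, a block for the replicate number, each library left out, and, added after the data were seen, WT NAMPT 1, 2 and 3 left out.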

Additional observations from a re-analysis of the deposited data

Results flagged for a closer look

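In 1 of the 40 sets of values tested, each a gene in a group of 5 or 6 libraries, 1 library stood apart from the rest by Dixon's ratio. Lpin1 in LKO NAMPT 3 was 227 CPM, while the next value of that group was 88.4 CPM and the lowest 59.2 CPM, a ratio of 0.826 against a critical value of 0.710. Chance gives about 1 such case in 20 sets. Lpin2 was also highest in that library, at 448 CPM. The log2 fold change of Lpin1 between LKO NAMPT and LKO EV kept its sign in every fit that left out 1 library, from −1.39 to −1.06.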

How the results depend on the processing

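With 5 or 6 mice a group, and 3 on chow, calls moved, not only those near the threshold. For WT NAMPT against WT EV the 4 calls became 0 without quality weights, with only the groups compared, by the edgeR quasi-likelihood test and without WT NAMPT 1 to 3, became 1 with library size alone, without the filter and by the exact test, became 2 with upper-quartile factors and by DESeq2, and ranged from 0 to 5 with each library left out. For LKO NAMPT against WT NAMPT the 2 calls became 1 with upper-quartile factors and 0 in every other alternative, the replicate block included, with 0 to 4 over libraries left out. Against chow, WT EV had 6 calls, 2 without quality weights, 3 by quasi-likelihood and 1 to 9 over libraries left out. WT NAMPT had 2 calls, 1 without weights or with only the groups compared, 5 with library size alone or without WT NAMPT 1 to 3, and 1 to 4 over libraries left out. LKO EV had 6 calls, 3 without weights and 3 to 7 over libraries left out. LKO NAMPT had 5, 2 without weights, 3 by both edgeR tests and 2 to 5 over libraries left out. Counts stayed at 0 under all alternatives run for the LKO NAMPT against LKO EV, LKO EV against WT EV and interaction comparisons. Calls over all genes moved too: for WT NAMPT against WT EV the 1890 became 192 without weights, 653 with only the groups compared and 428 by quasi-likelihood. For LKO NAMPT against WT NAMPT the 1120 became 1058 with upper-quartile factors, 840 with library size alone and 412 with the block. They became 120 without the filter, 45 by quasi-likelihood, 38 without weights and 12 with only the groups compared. Without weights, calls against chow fell from 3101 to 1201 in WT EV and from 5663 to 2594 in WT NAMPT. They fell from 3917 to 1399 in LKO EV and from 3874 to 1613 in LKO NAMPT. The causes were not tested.

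Same-numbered mice did not correlate above 0.1 in every pair of any comparison. Correlations ran from −0.188 to 0.348 between WT NAMPT and WT EV (4 pairs, 3 of them above 0.1) and from −0.327 to 0.368 between LKO EV and WT EV (3 pairs), and the labels name no shared litter or day, so the number was not taken as a pairing. With the number as a block 5 genes were called in WT NAMPT against WT EV (Gpam, Agpat3, Lpin1, Dgat1 and Mogat1). Gpat3 and Agpat2 lost their calls in that fit. Over all genes the block fit called 884 (6.29%), against 1890 (13.4%) without the block. For LKO EV against WT EV the block turned Gpat4 to 0.06, Agpat3 to −0.05 and Mogat1 to −0.52.

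Of 1840 single-gene estimates under alternatives 1557 kept direction and call, 164 lost a call, 36 gained one and 83 changed sign, none of them an estimate that was called as reported. Gpat4 in WT NAMPT against WT EV turned to 0.01 with upper-quartile factors, 0.13 with library size, 0.05 with the block and 0.03 without WT NAMPT 1 to 3 (−0.11 to 0.04 over libraries left out). Agpat3 in LKO NAMPT against LKO EV turned to −0.02 or −0.01 in 6 alternatives and to −0.03 by DESeq2 (−0.03 to 0.03). In the same comparison the ranges over libraries left out crossed 0 for Agpat2 (−0.03 to 0.17), Dgat1 (−0.09 to 0.00), Gpam (−0.01 to 0.18), Dgat2 (−0.14 to 0.03) and Mogat1 (−0.03 to 0.59). In LKO NAMPT against WT NAMPT, Gpat4 turned to −0.02 with library size, Gpam to −0.06 and Agpat2 to −0.23 without WT NAMPT 1 to 3, and Lpin1 ranged from −0.03 to 0.68. In LKO EV against WT EV the ranges were −0.17 to 0.03 for Gpat4, −0.19 to 0.09 for Gpat3 and −0.01 to 0.06 for Agpat3.

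In WT NAMPT against chow, Agpat2 turned to 0.03 without weights, 0.02 with upper-quartile factors or no filter, 0.10 with library size, 0.09 with the block, 0.01 with only the groups compared, 0.07 by edgeR and DESeq2 and 0.42 without WT NAMPT 1 to 3 (−0.15 to 0.17 over libraries left out). Gpam turned to −0.03 (−0.10 to 0.31) and Lpin1 to −0.08 without weights and −0.19 with the block (−0.27 to 0.45), and Dgat1 to 0.08 with library size and 0.05 without WT NAMPT 1 to 3 (−0.14 to 0.02). In the interaction Lpin2 turned to 0.37 without weights, 0.10 without the filter, 0.41 with the block and 0.49 by quasi-likelihood and DESeq2 (−0.14 to 0.17), and Lpin1 to 0.07 by quasi-likelihood and 0.06 by DESeq2.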
